A study of Mus musculus with 6 samples.

Results

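Notch signalling was followed here through 10 genes, the 4 receptors Notch1, Notch2, Notch3 and Notch4, the ligands Jag1 and Jag2, the ligand-like gene Dlk2, and Hes1, Hey1 and Heyl of the HES and HEY families of target genes. They were chosen by name, with earlier results of these data known, and all 10 were found among the 17924 genes of the deposited RNA-seq table. The cells were dermal fibroblasts from the dorsal skin of newborn (P0) mice, kept for 14 days in adipocyte differentiation medium. Control cells (CTL) were Pdgfra-Cre+ and had either 1 floxed allele (Nelfb fl/wt) or none (Nelfb wt/wt), without a statement of which genotype each library had, and Nelfb-/- cells came from Nelfb fl/fl Pdgfra-Cre+ mice, all on a C57BL/6J background. Both groups therefore carried Cre, which is driven by Pdgfra, so that a cell of another lineage in the culture can keep Nelfb. Each group had 3 biological replicates, and the comparison asks which RNAs differ in cells deleted for Nelfb, a subunit of the negative elongation factor that holds RNA polymerase II in a pause near the start of genes.

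Notch receptors are cell surface proteins that are activated by ligands on a neighbouring cell. On binding, proteases including Adam10 and gamma-secretase release the intracellular part of the receptor, which enters the nucleus, joins the DNA-binding protein Rbpj and co-activators of the Mastermind family, and switches on genes such as those of the HES and HEY families. HES and HEY proteins are transcriptional repressors. Dlk1 and its paralogue Dlk2 are membrane proteins built like Notch ligands that lack the domain with which canonical ligands bind, and Dlk1, also known as Pref-1, is known as a preadipocyte gene that holds back adipocyte formation.

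In these cells none of the 10 genes passed the threshold, which asks for both an adjusted p up to 0.05 and a 2-fold difference or more (limma on log2 values, Benjamini-Hochberg adjustment over 16252 genes tested), against 11.2% of all genes tested. At an unadjusted p under 0.05 there were 3 genes, Jag1, Jag2 and Heyl, all higher in Nelfb-/- cells. Of all genes tested 32.5% reached that limit, and 19.6% did so in this direction. Among the 10 genes the count was 1 with another scaling of the libraries (TMM or median ratio). It was 0 without CTL replicate 1 and 4 without CTL replicate 3. Of the 10 genes, 7 had a positive log2 fold change, that is, a higher fitted value in Nelfb-/- cells, compared with 54.6% of all genes. Their median log2 fold change was 0.61, against 0.07 for all genes tested. Values are given in CPM, for which a gene's reads are divided by those on every listed gene and multiplied by 1e+06. With 3 libraries against 3, no exact permutation test on 1 gene can reach a two-sided p below 0.1, so p-values here come from the model fitted across all genes.

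Sequencing depth over the table was 17.2 to 29.4 M reads per library (M, 1e+06), and 3 reads, taken as the floor of detection, were worth 0.102 to 0.175 CPM. Nelfb itself was measured at 17.3, 19.6 and 22.3 CPM in CTL libraries against 5.50, 3.90 and 5.55 CPM in Nelfb-/- libraries (log2 fold change -1.99, SE 0.22, adjusted p = 0.0050). CTL replicate 3 stood apart from the other two. Across genes its log2 values correlated at 0.942 and 0.940 with CTL replicates 1 and 2, which correlated with each other at 0.985, and at 0.924 and 0.919 with Nelfb-/- replicates 2 and 3. Nelfb-/- replicate 1 correlated at 0.930 and 0.945 with its own group, whose replicates 2 and 3 correlated with each other at 0.988. For the genes described one by one below, the value without either library is given where it changes a call or a sign.

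The cultures held RNA of more than one cell type. Markers of adipocytes, 8 genes of which Fabp4 was the most abundant, summed to 18600 to 28926 CPM in CTL and 10671 to 19944 CPM in Nelfb-/- cells, and markers of fibroblasts and adipose progenitors to 2984 to 11817 and 5899 to 24847 CPM. Of the adipocyte markers 0 fell and Lep rose past the threshold, and of the 8 fibroblast markers none passed. CTL replicate 3 had the highest fibroblast sum and the lowest adipocyte sum of its group. The macrophage sum lay at 166 to 652 CPM in CTL and 1649 to 5166 CPM in Nelfb-/- cells, where 7 of 8 genes passed the threshold and Nelfb-/- replicate 1 was highest. The sum of Schwann cell markers was also higher in Nelfb-/- cells (30.6 to 35.0 and 147 to 185 CPM, 4 of 5 genes tested passing). So were those of melanocyte markers (1.22 to 1.43 and 30.3 to 72.1 CPM, 5 of 5) and keratinocyte markers (3.25 to 3.27 and 7.63 to 18.7 CPM, 2 of 5). The skeletal muscle sum was higher too (6.81 to 9.01 and 32.8 to 72.7 CPM, 3 of 4 genes tested). Tyr, Tyrp1 and Mlana of the melanocytes, and Myod1 and Ckm of muscle, were at or under the floor in every CTL library. Endothelial markers summed to 8.49 to 11.9 and 9.43 to 23.2 CPM (1 of 7 genes tested passing). Mural markers, those of pericytes and smooth muscle, summed to 707 to 1011 and 487 to 1226 CPM (0 of 8 passing). The part of these cells in the values of the Notch genes was not tested, and in such bulk RNA fewer cells of a type cannot be told apart from less RNA per cell.

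**Figure D1:**
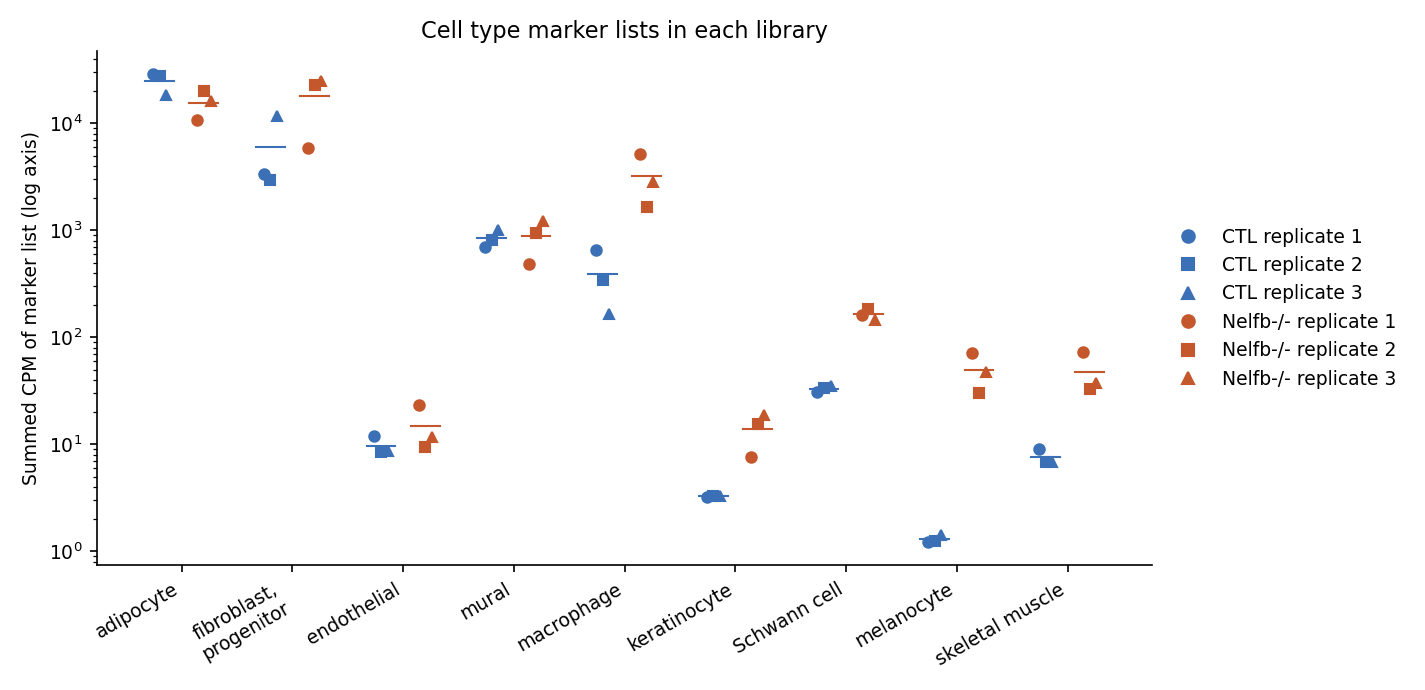
Summed CPM of each marker list (log axis) in the 6 libraries, with CTL in blue, Nelfb-/- in orange, a symbol per replicate number and the group mean as a bar. The macrophage sum of each Nelfb-/- library (1649 to 5166 CPM) exceeded that of each CTL library (166 to 652 CPM), whereas CTL replicate 3 had a fibroblast sum of 11817 CPM, between Nelfb-/- replicates 1 and 2.

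The start sites of the genes are shown first, since Nelfb acts close to them. RefSeq promoter sequences (GRCm38.p6, 250 bases before to 50 bases after the start) were at hand for 7 of the 10 genes, with 2 start sites for Dlk2. The 4 below were chosen for the receptor with the highest level, the receptors whose replicates differed most, and the ligand with the highest GC content. Each is written 5′ to 3′ on the strand of its gene, and capitals mark every CG pair, the base step at which mammalian DNA is methylated.
Notch2, chr3:98013288-98013587, plus strand: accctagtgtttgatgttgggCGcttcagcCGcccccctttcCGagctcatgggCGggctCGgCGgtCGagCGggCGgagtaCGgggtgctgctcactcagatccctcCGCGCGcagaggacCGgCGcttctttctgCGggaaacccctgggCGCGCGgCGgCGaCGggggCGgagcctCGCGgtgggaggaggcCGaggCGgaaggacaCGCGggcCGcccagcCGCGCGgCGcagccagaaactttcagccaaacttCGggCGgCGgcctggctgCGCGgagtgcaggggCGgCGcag
Notch3, chr17:32166841-32167140, minus strand: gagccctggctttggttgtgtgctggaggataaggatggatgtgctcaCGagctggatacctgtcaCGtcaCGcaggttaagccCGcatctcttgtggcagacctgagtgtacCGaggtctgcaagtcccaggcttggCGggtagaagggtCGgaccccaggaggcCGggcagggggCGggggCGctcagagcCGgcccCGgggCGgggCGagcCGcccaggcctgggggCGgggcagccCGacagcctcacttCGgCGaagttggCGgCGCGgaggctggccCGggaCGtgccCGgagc
Notch4, chr17:34564045-34564344, plus strand: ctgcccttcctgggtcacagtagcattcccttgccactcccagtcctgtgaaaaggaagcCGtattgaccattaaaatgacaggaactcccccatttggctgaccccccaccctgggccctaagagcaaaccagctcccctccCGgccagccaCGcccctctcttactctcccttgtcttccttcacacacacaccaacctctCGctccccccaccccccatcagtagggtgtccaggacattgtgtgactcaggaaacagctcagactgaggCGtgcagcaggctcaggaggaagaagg
Jag2, chr12:112929446-112929745, minus strand: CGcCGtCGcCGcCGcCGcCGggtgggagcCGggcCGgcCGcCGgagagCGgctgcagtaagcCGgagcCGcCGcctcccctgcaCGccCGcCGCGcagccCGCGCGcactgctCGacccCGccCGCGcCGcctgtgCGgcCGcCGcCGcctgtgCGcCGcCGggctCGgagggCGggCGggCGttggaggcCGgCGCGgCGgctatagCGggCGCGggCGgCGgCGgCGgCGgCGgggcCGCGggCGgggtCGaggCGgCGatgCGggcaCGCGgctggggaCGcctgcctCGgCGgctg
The Jag2 window held 63 CG pairs at a GC content of 86.0%, and the Notch2 window held 41 at 73.0%. In the Notch4 window there were 5, below the median of 7 over 32851 mouse promoters, with a GC content of 58.3% against a median of 52.7%. Between these lay Notch1 and Jag1 with 23 and 22 pairs, Notch3 with 25, and the start sites of Dlk2 with 14 and 41. The Notch1 window (26503773 to 26504072, minus strand) lay inside the gene, short of 26516663, its start by the deposited positions. The core letters bound by Rbpj, TGGGAA or TTCCCA on the other strand, occurred in 25.6% of all these promoters and in none of the 8 windows, and the E-box CACGTG (7.15% of all) in none either. CACGAG or CTCGTG, a form of the N-box bound by HES proteins, occurred in 6.47% of all promoters. Among the 8 windows this form was found in that of Notch3 alone, beginning 204 bases before the start. Other forms of the N-box were not searched for. A match or its absence in this window describes the letters and says nothing of the binding of a factor.

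Set per kb of exon, the levels of the 10 genes spanned a wide range. Over the 6 libraries the mean level was highest for Notch2 (11.0 CPM per kb, the 72.2nd percentile of 15924 genes), followed by Jag1 (9.36), Hes1 (7.73), Notch1 (4.86) and Notch3 (2.78). Hey1 (0.556 CPM per kb), Notch4 (0.396), Heyl (0.359), Dlk2 (0.255) and Jag2 (0.122, percentile 1.56) were far lower. In CTL cells the ranges of Notch2 (8.36 to 9.37 CPM per kb) and Jag1 (6.75 to 8.85) overlapped, and that of Hes1 (3.51 to 11.2) spanned both and that of Notch1 (4.35 to 6.33), so that the place of Hes1 and the order of Notch2 and Jag1 were not set beyond the spread of replicates, while Notch1 lay below Notch2 and Jag1 in every library. Notch3 (0.571 to 5.75) reached into the range of Notch1 through CTL replicate 3. Hey1 (0.331 to 1.14 CPM per kb), Notch4 (0.241 to 0.865) and Dlk2 (0.0213 to 0.595) overlapped one another, and the ranges of Heyl (0.044 to 0.119) and Jag2 (0.0683 to 0.100) overlapped too.

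**Figure D2:**
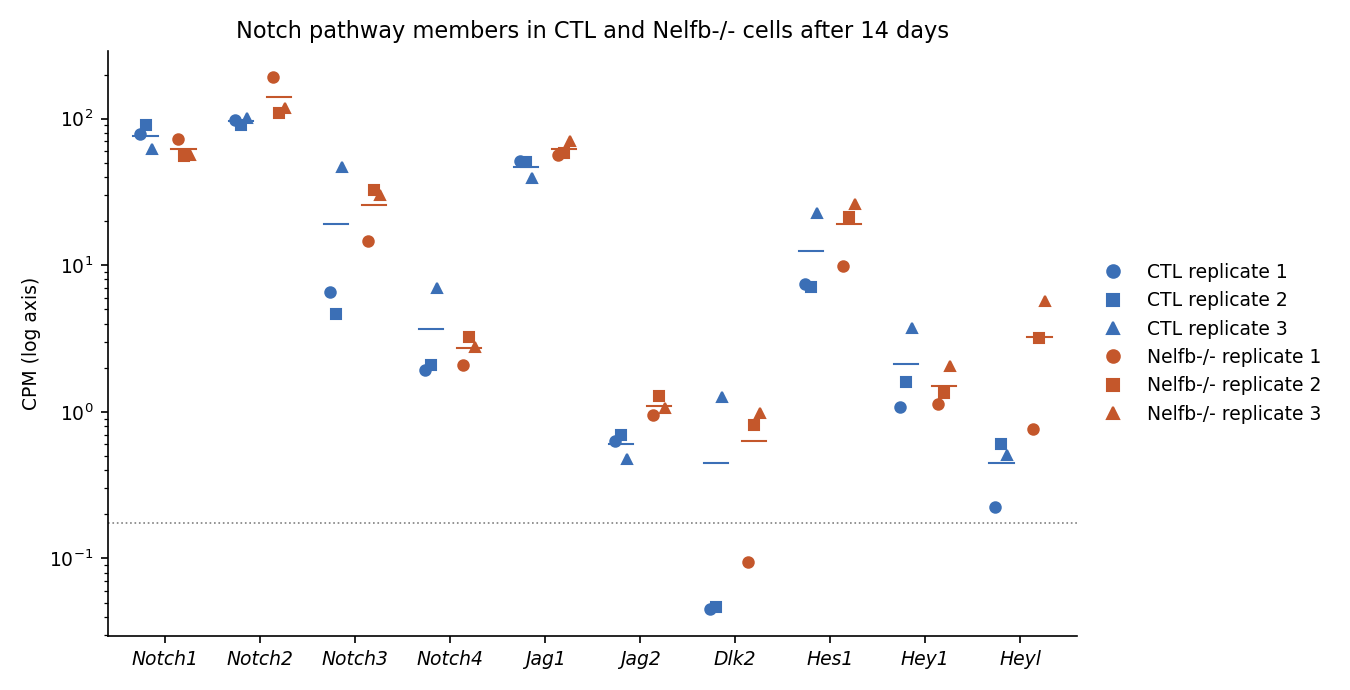
CPM (log axis) of the 10 genes in each library, with CTL in blue, Nelfb-/- in orange, a symbol per replicate number and the group mean as a bar; the dotted line is the highest floor of 3 reads, 0.175 CPM. The blue triangle, CTL replicate 3, lies well above the other CTL points for Notch3, Notch4, Dlk2, Hes1 and Hey1, and the groups are separate for Notch2, Jag1, Jag2 and Heyl.

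Of the receptors, none passed the threshold, and 2 had positive and 2 negative log2 fold changes. Notch1 (ENSMUSG00000026923, chromosome 2, 26457903 to 26516663, minus strand) stood at 78.1, 90.1 and 61.9 CPM in CTL replicates 1 to 3 and at 73.0, 55.5 and 56.5 CPM in Nelfb-/- replicates 1 to 3. The groups overlapped, with Nelfb-/- replicate 1 above CTL replicate 3. The means were 76.7 ± 14.2 and 61.7 ± 9.83 CPM (SD, n = 3 each), and the log2 fold change of -0.31 (SE 0.19, 95% interval -0.77 to 0.15) had an adjusted p of 0.315 in limma. A 2-fold change in either direction lies outside this interval. The exons of Notch1, Notch2 and Notch3 overlap those of the low RNAs 0610009E02Rik (at most 0.873 CPM, opposite strand), Gm42820 (at most 1.37 CPM, same strand) and Gm17276 (at most 0.644 CPM, opposite strand).

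Notch2 (ENSMUSG00000027878, chromosome 3, 98013527 to 98150361, plus strand) was the most abundant receptor per kb in every library. It was measured at 98.6, 90.2 and 101 CPM in CTL libraries against 191, 110 and 118 CPM in Nelfb-/- libraries. All 3 Nelfb-/- libraries exceeded all 3 CTL libraries, as for 22.0% of all genes tested (38.1% did not overlap in one direction or the other). Nelfb-/- replicate 1 lay highest, as it did for the macrophage, melanocyte, skeletal muscle and endothelial sums. Within CTL, Notch2 was highest in replicate 3, where the macrophage sum was lowest. Whether the RNA of these cells bears on the Notch2 values was not tested. The means were 96.6 ± 5.69 and 140 ± 44.8 CPM (SD, n = 3 each), with a log2 fold change of 0.49 (SE 0.23, 95% interval -0.05 to 1.04, limma adjusted p = 0.189), which was 0.24 without Nelfb-/- replicate 1.

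Notch3 (ENSMUSG00000038146, chromosome 17, 32120820 to 32166852, minus strand), a receptor known from mural cells of blood vessels, varied most among the receptors. In CTL it was measured at 6.53, 4.62 and 46.5 CPM, and in Nelfb-/- cells at 14.5, 32.6 and 30.1 CPM. CTL replicate 3 was the highest of all 6 libraries, and CTL replicates 1 and 2 were the lowest, below every Nelfb-/- library. The means of 19.2 ± 23.6 and 25.8 ± 9.78 CPM (SD, n = 3 each) gave a log2 fold change of 1.11 (SE 0.87, 95% interval -0.96 to 3.18, limma adjusted p = 0.421). When CTL replicate 3 was left out, the fitted value was 2.13 (SE 0.40, limma adjusted p = 0.0208), past the threshold, so that this 1 library decides the call. When CTL replicate 2 was left out, it was 0.47 (adjusted p = 0.794). The summed mural markers were 707, 819 and 1011 CPM in CTL libraries against 487, 949 and 1226 CPM in Nelfb-/- libraries, and the summed fibroblast markers, mostly Col1a1 and Col3a1, were 3398, 2984 and 11817 against 5899, 23040 and 24847 CPM. Acta2 made up most of the mural sum, and Cspg4 of the same list, singled out after its values were seen, was 23.5, 26.4 and 83.7 against 40.4, 54.7 and 75.3 CPM, with CTL replicate 3 highest as for Notch3. In none of the other 7 mural markers was CTL replicate 3 the highest library. Their part in the Notch3 values was not tested.

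Notch4 (ENSMUSG00000015468, chromosome 17, 34564268 to 34588503, plus strand), known from endothelial cells, was the receptor with the lowest level. Its values were 1.94, 2.10 and 6.97 CPM in CTL libraries against 2.09, 3.26 and 2.77 CPM in Nelfb-/- libraries. CTL replicate 3 again lay above the other 5 libraries, which differed little. Its log2 fold change lay at -0.20 (SE 0.53, 95% interval -1.46 to 1.07, limma adjusted p = 0.831), and it turned to 0.39 (adjusted p = 0.366) without CTL replicate 3. The summed endothelial markers were 11.9, 8.49 and 8.74 CPM in CTL libraries against 23.2, 9.43 and 11.8 CPM in Nelfb-/- libraries, and their part in the Notch4 values was not tested.

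The make-up of the receptor RNA is given as the share of each gene in the sum of the 4 receptors per kb of exon. Notch1 held 35.0%, 40.8% and 21.4% of it in CTL and 20.6%, 21.0% and 20.9% in Nelfb-/- cells, and CTL replicate 3 lay beside the Nelfb-/- libraries and the groups did not overlap. Notch2 held 58.3%, 53.9% and 46.1% in CTL and 71.2%, 55.1% and 57.8% in Nelfb-/- cells, the largest share in every library. Notch3 ranged from 3.68% in CTL replicate 2 to 28.3% in CTL replicate 3, with 7.21%, 21.7% and 19.6% in Nelfb-/- cells. Notch4 stayed between 1.04% and 4.25%. The sum of the 4 receptors was 15.7, 15.5 and 20.3 CPM per kb in CTL libraries against 24.9, 18.5 and 19.0 CPM per kb in Nelfb-/- libraries, and these ranges overlapped. No test was run on the shares.

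**Figure D3:**
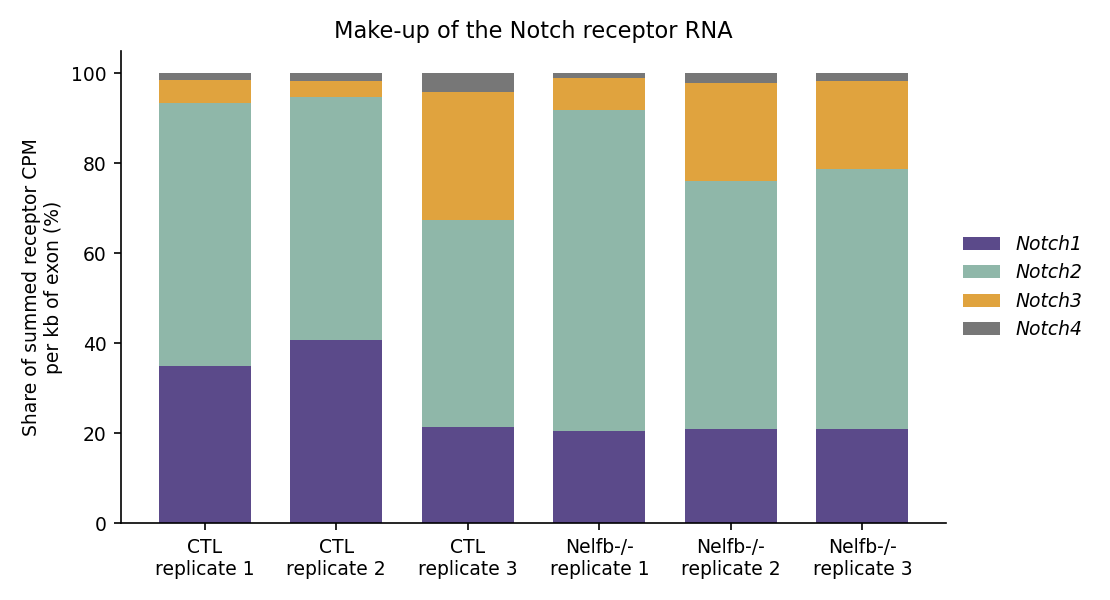
Share (%) of each Notch receptor in the summed CPM per kb of exon of the 4 receptors, 1 bar per library. Notch2 is the largest part of every bar, the Notch1 part is 35.0% and 40.8% in CTL replicates 1 and 2 and 20.6% to 21.4% in the other 4 libraries, and the Notch3 part is largest in CTL replicate 3 (28.3%).

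Both Jagged ligands lay higher in every Nelfb-/- library than in any CTL library, as did 22.0% of all genes tested, and neither passed the threshold. Jag1 (ENSMUSG00000027276, chromosome 2, 137081456 to 137116644, minus strand), the more abundant of the Jagged ligands, was measured at 51.5, 50.5 and 39.3 CPM in CTL libraries against 56.9, 58.6 and 70.4 CPM in Nelfb-/- libraries. The gap between the highest CTL and the lowest Nelfb-/- library was smaller than the SD of either group. The means were 47.1 ± 6.78 and 62.0 ± 7.36 CPM (SD, n = 3 each), with a log2 fold change of 0.40 (SE 0.16, 95% interval 0.0055 to 0.79, limma adjusted p = 0.149). CTL replicate 3, which was high for several other genes of the group, was the lowest library for Jag1.

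Jag2 (ENSMUSG00000002799, chromosome 12, 112907819 to 112929776, minus strand) was measured at a low level, 0.631, 0.700 and 0.476 CPM in CTL libraries against 0.948, 1.28 and 1.06 CPM in Nelfb-/- libraries. These values stood for 14, 15 and 14 reads in CTL and 20, 22 and 26 reads in Nelfb-/- cells, so that counting error alone is large. This gave a log2 fold change of 0.82 (SE 0.34, 95% interval 0.013 to 1.63, limma adjusted p = 0.149). Its promoter window, shown above, was the one richest in CG pairs.

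Dlk2 (ENSMUSG00000047428, chromosome 17, 46297421 to 46303271, plus strand) was measured at 0.0451, 0.0467 and 1.26 CPM in CTL libraries against 0.0948, 0.815 and 0.979 CPM in Nelfb-/- libraries. The reads behind these values were 1, 1 and 37 in CTL and 2, 14 and 24 in Nelfb-/- cells, so that 3 of the 6 libraries lay under the floor. Libraries of both groups were found at each end of the range, and the log2 fold change of 1.17 (SE 1.29, 95% interval -1.92 to 4.27, limma adjusted p = 0.571) leaves either direction within its interval. Leaving out 1 library gave 0.53 (without CTL replicate 1, limma adjusted p = 0.868) to 2.09 (without Nelfb-/- replicate 1, adjusted p = 0.283). The exons of Dlk2 overlap those of Abcc10 on the opposite strand, and whether reads were counted by strand is not given in the sources used here. Abcc10 was measured at 7.35, 8.40 and 7.45 CPM in CTL libraries against 11.7, 8.56 and 6.85 CPM in Nelfb-/- libraries, and the part of its reads in the Dlk2 values was not tested.

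Of the HES and HEY targets, Hes1 (ENSMUSG00000022528, chromosome 16, 30064384 to 30067796, plus strand) had the highest level. It was measured at 7.49, 7.14 and 22.7 CPM in CTL libraries against 9.91, 21.2 and 26.0 CPM in Nelfb-/- libraries. CTL replicates 1 and 2 lay below every Nelfb-/- library, while CTL replicate 3 lay between Nelfb-/- replicates 2 and 3. The means were 12.4 ± 8.89 and 19.0 ± 8.25 CPM (SD, n = 3 each), with a log2 fold change of 0.72 (SE 0.55, 95% interval -0.61 to 2.05, limma adjusted p = 0.416), which was 1.26 (adjusted p = 0.0889) without CTL replicate 3. Hes1 shared its 3 highest libraries, CTL replicate 3 and Nelfb-/- replicates 2 and 3, with Notch3, Notch4 and Dlk2, a set that was also the highest for 18.0% of all genes tested.

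Heyl (ENSMUSG00000032744, chromosome 4, 123233556 to 123249875, plus strand) had the largest log2 fold change of the 10 genes. Its values were 0.225, 0.607 and 0.510 CPM in CTL (5, 13 and 15 reads) and 0.759, 3.20 and 5.71 CPM in Nelfb-/- cells (16, 55 and 140 reads). Each Nelfb-/- library lay above each CTL library, but Nelfb-/- replicate 1 lay much closer to CTL than to the rest of its group. The means were 0.447 ± 0.198 and 3.22 ± 2.48 CPM (SD, n = 3 each), a fitted 5.36-fold difference (log2 fold change 2.42, SE 0.78, 95% interval 0.56 to 4.29, limma adjusted p = 0.0829). The adjusted p missed the threshold, and without Nelfb-/- replicate 1 the log2 fold change was 3.23 with an adjusted p of 0.0196, past it. Without Nelfb-/- replicate 3 it was lowest, at 1.81 (adjusted p = 0.248). Of the 8 mural markers 5 had a positive log2 fold change, from Rgs5 at 2.68 (limma adjusted p = 0.0784) at the top to Myh11 at -0.69 (adjusted p = 0.112) at the bottom, and none passed. The mural sum did not separate the groups (707 to 1011 and 487 to 1226 CPM), and the part of these cells in the Heyl values was not tested.

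Hey1 (ENSMUSG00000040289, chromosome 3, 8663359 to 8667256, minus strand), of the same family as Heyl, was measured at 1.08, 1.59 and 3.71 CPM in CTL libraries against 1.14, 1.34 and 2.04 CPM in Nelfb-/- libraries. The groups overlapped, with CTL replicate 3 highest. Its log2 fold change lay at -0.34 (SE 0.51, 95% interval -1.56 to 0.88, limma adjusted p = 0.684) and turned to 0.15 (adjusted p = 0.798) without CTL replicate 3. The 3 targets thus had fitted changes of either sign, and the differences among them were not tested.

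**Figure D4:**
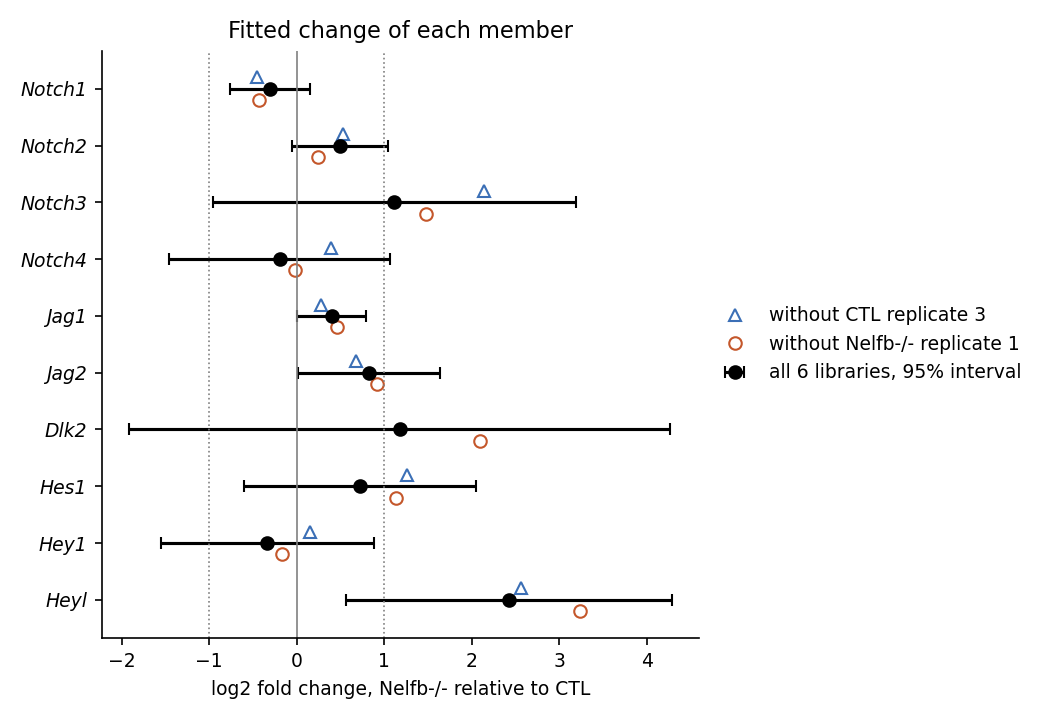
Log2 fold change of Nelfb-/- relative to CTL for the 10 genes, as fitted by limma with 95% intervals (black), without CTL replicate 3 (blue triangles, not available for Dlk2) and without Nelfb-/- replicate 1 (orange circles); dotted lines mark a 2-fold change. Notch3 moves from 1.11 to 2.13 without CTL replicate 3, Notch4 and Hey1 change sign, and Heyl lies at 2.42 to 3.23.

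The other genes of the pathway were described from a list of 64, of which 58 were in the table and 55 were tested. Of these, 2 rose and 1 fell past the threshold, against 7.58% and 3.64% of all genes tested. At the adjusted p alone 7 passed, 6 of them upward, compared with 15.8% of all genes. The median log2 fold change was 0.15, with 35 positive and 20 negative values.

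Among the ligands, Dlk1 rose from 53.9, 48.0 and 232 CPM in CTL to 661, 1115 and 898 CPM in Nelfb-/- cells (log2 fold change 3.37, SE 0.61, limma adjusted p = 0.0168). All Nelfb-/- libraries lay above CTL replicate 3, the highest of its group. The log2 fold change stayed between 2.96 and 4.10 when 1 library was left out, but the adjusted p passed 0.05 without CTL replicate 1, CTL replicate 2, Nelfb-/- replicate 2 or Nelfb-/- replicate 3 (0.0603 to 0.0719 in limma). Dlk1 was thus far more abundant than its paralogue Dlk2, for which no change was detectable at 1 to 37 reads, and the difference between the paralogues was not tested. The Delta-like ligand Dll1 was below the limit for testing, at 0.406, 0.280 and 0.204 CPM in CTL libraries against 0.190, 0.640 and 0.530 CPM in Nelfb-/- libraries, and Dll3 and Dll4 were not among the genes listed.

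Fringe enzymes add sugars to Notch receptors and thereby shift which ligands activate them. Mfng fell from 7.22, 6.91 and 2.07 CPM in CTL to 0.616, 0.291 and 0.286 CPM in Nelfb-/- cells (log2 fold change -3.50, SE 0.58, limma adjusted p = 0.0133). The call was lost without any of the same 4 libraries (log2 fold change -3.34 to -3.20, limma adjusted p = 0.0503 to 0.0663). Its paralogue Lfng was measured at 3.61, 3.08 and 15.7 CPM in CTL libraries against 10.5, 31.0 and 31.5 CPM in Nelfb-/- libraries, with overlapping groups (log2 fold change 1.95, SE 0.72, limma adjusted p = 0.119). For both genes CTL replicate 3 lay on the side of the Nelfb-/- libraries within its group. Without it Lfng passed the threshold (log2 fold change 2.69, SE 0.53, limma adjusted p = 0.0227), so that leaving out this 1 library changes the call. Rfng, the third Fringe, had overlapping groups (25.7 to 35.3 CPM over all libraries, log2 fold change 0.19, SE 0.17, limma adjusted p = 0.493). The differences among the 3 Fringe genes were not tested.

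Of the proteases and gamma-secretase subunits, 9 of 10 had a positive log2 fold change (54.6% of all genes tested) and 1 rose past the threshold, a share near the 7.58% of all genes. This was Adam10, the protease that cuts ligand-bound Notch at the cell surface, which rose from 70.8, 61.5 and 91.8 CPM in CTL to 191, 150 and 159 CPM in Nelfb-/- cells (log2 fold change 1.17, SE 0.19, limma adjusted p = 0.0125). Furin, which cleaves the receptor on its way to the surface, had a log2 fold change of 0.76 (adjusted p = 0.0105), and Psen2, a catalytic subunit of gamma-secretase, one of 0.53 (adjusted p = 0.0309), both under 2-fold. Adam10 was not called without CTL replicate 1, CTL replicate 2 or Nelfb-/- replicate 3 (log2 fold change 1.04 to 1.20, limma adjusted p = 0.0519 to 0.0633). The macrophage, Schwann cell, melanocyte, keratinocyte and skeletal muscle sums were also higher in each Nelfb-/- library than in any CTL library. Within CTL, Adam10 was highest in replicate 3, where the macrophage sum was lowest (166 CPM). The part of these cells in the Adam10 values was not tested.

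In the nuclear activation complex, 0 of 9 genes passed, with 4 positive and 5 negative values. Rbpj was measured at 80.4, 72.9 and 126 CPM in CTL libraries against 160, 103 and 115 CPM in Nelfb-/- libraries, with overlapping groups (log2 fold change 0.45, SE 0.27, limma adjusted p = 0.289). Maml3, a Mastermind co-activator, had the largest log2 fold change of the complex at 0.94 (adjusted p = 0.0615), and without CTL replicate 3 it passed at 1.09 (adjusted p = 0.0409). Of 12 co-repressors none passed both limits, the largest being Hdac1, a histone deacetylase, at 0.98 (limma adjusted p = 0.0489). Hdac1 passed without CTL replicate 3 (1.19, adjusted p = 0.0225) and without Nelfb-/- replicate 1 (1.17, adjusted p = 0.0306).

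None of the 5 ligand ubiquitin ligases passed, the largest log2 fold change being that of Neurl1a at 1.27 (limma adjusted p = 0.155), and of 10 tested inhibitors and genes of turnover none passed, the largest being that of Dtx1 at 1.34 (adjusted p = 0.0711). Dtx1 passed without CTL replicate 3 (1.66, limma adjusted p = 0.0258) and with no abundance trend in the variance (adjusted p = 0.0392). Nrarp, an inhibitor that Notch itself induces, was below the limit for testing, at 0, 0 and 0.165 CPM in CTL libraries against 0.284, 0.535 and 0.571 CPM in Nelfb-/- libraries, and was singled out after its values were seen. The highest of these stood for 14 reads. Neither of the 2 other HES and HEY factors tested passed, the larger change being that of Hes6 (log2 fold change -0.19, limma adjusted p = 0.622).

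**Figure D5:**
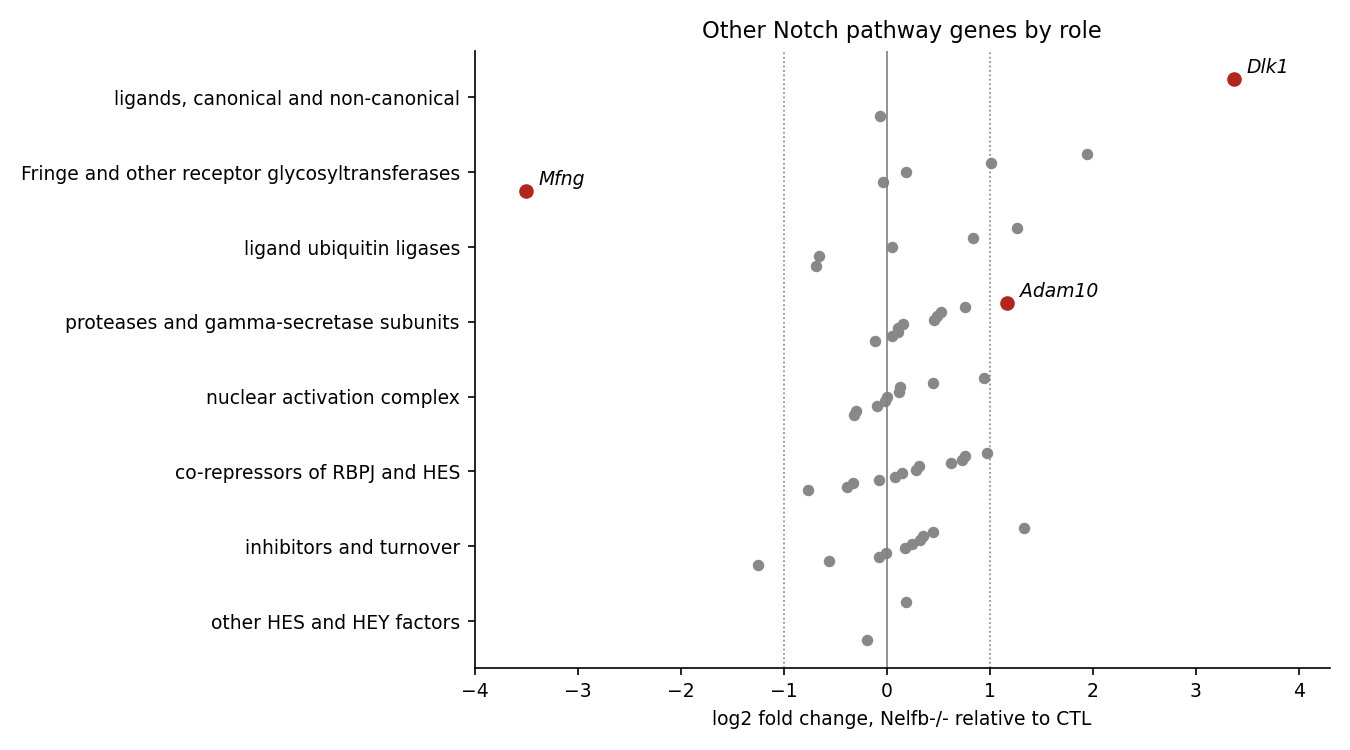
Log2 fold change of Nelfb-/- relative to CTL for the 55 other Notch pathway genes tested, 1 point per gene, sorted by value within each role; red points passed an adjusted p of 0.05 and 2-fold, and dotted lines mark a 2-fold change. The red points are Dlk1 (3.37), Adam10 (1.17) and Mfng (-3.50), and most other points lie within 2-fold.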

How the data were processed

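The deposited table gave CPM for 17924 genes in 6 libraries, 3 per group, each matched to a sample by its label, and the authors had added 0.0001 to every value. The submitters' processing notes name STAR 2.7, Partek 9.0.20.0202 and mm10. The counting and its use of strand are not given in the sources used here. Gene positions are from the deposited table (mm10), and IDs and exon lengths from GENCODE vM21, in which 17520 genes were matched by name. The offset was subtracted, and the lowest value step of a library gave the worth of 1 read and thereby its depth. Of the values up to 20 reads, 69.3% to 71.9% were whole within 0.02 of a step, too few for a count test. CPM were multiplied by the common depth of 22.3 M reads, and the 16252 genes averaging 10 reads or more (0.448 CPM) entered a linear model of log2(reads + 1) in limma 3.58.1 (R 4.3.3), with an abundance trend. Fold changes on this scale understate those of low genes. Log2 fold changes are Nelfb-/- relative to CTL, and adjusted p-values follow Benjamini and Hochberg. The fit was tested on simulated data. The p-values measure the spread between these libraries, and intervals on reads cover counting error only.

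The 10 genes and all lists were chosen with earlier results of these data known. Genes named are these 10, Nelfb, Dlk1, Dll1, Dll3 and Dll4, the Fringe genes, Rbpj, every pathway gene past the threshold, and the largest change of a role in which none passed. Furin, Psen2, Nrarp, Cspg4, Abcc10 and the RNAs that overlap receptors were named after their values were seen. The 17 alternatives varied the filter, pseudocount, scaling, variance model, replicate block and libraries. The values of 1 pathway gene are not reported here.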

Additional observations from a re-analysis of the deposited data

How the results depend on the processing

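Of the 10 genes, 0 passed the threshold in the fit reported, and under 17 alternatives 162 of 167 values kept their direction and their side of it. Leaving out 1 library gave 0 to 1 genes, Notch3 without CTL replicate 3 and Heyl without Nelfb-/- replicate 1. Without CTL replicate 3 the sign of Notch4 and Hey1 turned, and with 1 library left out their log2 fold changes ranged from -0.52 to 0.39 and from -0.72 to 0.15. For the other pathway genes the count was 3, and 0 to 11 with 1 library left out (11 without CTL replicate 3, 5 without Nelfb-/- replicate 1, 1 without Nelfb-/- replicate 2, 0 without CTL replicate 1, CTL replicate 2 or Nelfb-/- replicate 3), and 0 without moderation of the variances. Dlk1 and Mfng passed in 12 of the 17 and Adam10 in 13. For all genes the count was 1824, with 426 (without Nelfb-/- replicate 3) to 2479 (without CTL replicate 3) when 1 library was left out and 684 without moderation. The cause was not tested.

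With the replicate number as a block the counts were 1 of the 10 genes (Heyl, adjusted p = 0.0254), 6 other pathway genes (among them Lfng, adjusted p = 0.0368) and 2175 of all genes. Deviations from the group means correlated between same-numbered libraries at 0.52, -0.39 and 0.52, so that the numbers were not taken to pair the samples, and replicate 2 of each group did not correlate best with its own number. Depth limits Jag2 and Dlk2 most: neither was tested at a mean of at least 1 CPM, nor Dlk2 without CTL replicate 3, and a pseudocount of 1 CPM brought the log2 fold change of Dlk2 to 0.22, that of Jag2 to 0.39, that of Heyl to 1.35 and that of Mfng to -2.07.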
